A study of Rattus norvegicus with 12 samples.

Results

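Interleukins are secreted signalling proteins of the immune system, and their receptors are the membrane chains through which cells read them. All genes whose symbol begins with Il and a digit were taken as members, which gave 80 of the 32623 genes in the files. Of these 80, 40 had enough reads to be tested, 30 were counted but stayed below the filter on low counts, and 10 had 0 counts in all 12 libraries. By role, 37 members are ligands, 36 are signalling receptor chains, 3 are soluble antagonists, 3 are decoy or non-signalling receptors and 1, Il4i1, is an amino acid oxidase that is neither. The libraries hold polyadenylated RNA of rat cells that the labels call primary hepatic stellate cells, the pericytes of the liver sinusoid that make collagen in fibrosis. All 12 cultures came from rats made cirrhotic by breathing carbon tetrachloride (CCl4) over a long period. The cells shared the medium for 24 h, through Transwell inserts, with 15000 viable hAEC (human amniotic epithelial cells) or hAMSC (human amniotic mesenchymal stromal cells), or were labelled Veh. Each group had 4 libraries, named here by group and sample number. Whether the libraries of a group are separate animals or cultures is not in the labels, so each p-value speaks only to the spread among libraries, which may be technical.

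Interleukin signals pass through a few shared receptor chains. IL-1 alpha and IL-1 beta bind the receptor Il1r1 and its partner Il1rap, the antagonist Il1rn occupies the same receptor without signalling, and the MyD88 and IRAK proteins carry the signal on. IL-6 binds Il6r and the shared chain Il6st (gp130), which LIF and oncostatin M also use, and the signal runs through JAK kinases and STAT3, with Socs3 as an induced brake. In liver, Kupffer cells and recruited macrophages are a known source of IL-1 beta, and IL-1 and IL-6 family signals are known to act on stellate cells and hepatocytes.

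The libraries fell into 2 sets of 6 in the expression values of all genes, and each set holds 2 libraries of every group. The lower-numbered set holds hAEC 3 and 4, hAMSC 7 and 8, and Veh 17 and 18. The higher-numbered set holds hAEC 11 and 12, hAMSC 15 and 16, and Veh 19 and 20. The labels give no batch, date or other name for the sets, so differences between them are described and not tested, and the set was a term in every test of co-culture. Total counts ran from 27382724 to 34922211 per library, so that 3 counts, the limit that a count of 0 allows, correspond to 0.0860 to 0.110 CPM (read counts scaled to library size, with TMM factors). The markers did not match the label. The 13 macrophage markers summed to 7914 to 8416 CPM in the lower-numbered set and 19820 to 21585 CPM in the higher-numbered set. The 13 stellate cell and myofibroblast markers summed to 65.9 to 105 and 26.7 to 31.9 CPM, and apart from Reln the other 12 stayed at or below 8.37 CPM in every library. In bulk RNA, fewer cells of a type and less RNA per cell cannot be told apart.

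Most interleukin ligands were at or near 0. The 10 members with 0 counts in all 12 libraries were the ligands Il9, Il17b, Il21, Il31, Il36g and Il1f10 and the receptor chains Il5ra, Il20ra, Il1rapl1 and Il1rapl2. For each of them the data allow a level of up to 0.0860 to 0.110 CPM, depending on the library. In RefSeq the span of Il1f10 lies wholly within that of Il36b, and that of Il9 within that of Slc25a48. Their reads could be counted to the overlapping gene, so the limit may not hold for Il1f10 and Il9. The 30 members that were counted but not tested reached at most 17 counts in any library. They were the ligands Il2, Il3, Il4, Il5, Il10, Il11, Il12a, Il12b, Il13, Il17a, Il17c, Il17d, Il17f, Il19, Il20, Il22, Il24, Il25, Il34 and Il36a, the antagonist Il36rn, the decoys Il13ra2 and Il22ra2, and the receptor chains Il9r, Il12rb1, Il17rb, Il17re, Il22ra1, Il23r and Il31ra. In all, 26 of 37 ligands and 11 of 36 receptor chains went untested for this reason. Among these ligands are the T cell products Il2, with at most 1 count in a library, Il4 and Il17a, each with at most 3, and Il13, with at most 1. Il10, the anti-inflammatory cytokine, had 1 to 7 counts per library and is therefore given as counts only. It had 1 or 2 counts in each library of the lower-numbered set and 3 to 7 in each of the higher-numbered set.

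Several receptors were detected while their ligands were at or near 0. Il10ra, the ligand-binding chain for IL-10, lay between 88.0 and 98.1 CPM (median 92.5) in the lower-numbered set and between 98.2 and 106 CPM (median 102) in the higher-numbered set. Its partner Il10rb lay between 96.7 and 114 CPM in the lower-numbered set and between 149.5 and 170.4 CPM in the higher-numbered set. Il4r, the receptor for IL-4 and IL-13, lay between 138 and 158 CPM (median 149.8) in the lower-numbered set and between 111 and 134 CPM (median 122) in the higher-numbered set. Both of its partner chains were detected in every library, Il2rg at 192 to 266 CPM and Il13ra1 at 74.2 to 107 CPM. Il17ra, a receptor chain for IL-17A, lay between 169.7 and 191 CPM in the lower-numbered set and between 275 and 299 CPM in the higher-numbered set. Il20rb, a chain for IL-19, IL-20 and IL-24, was detected at 10.6 to 12.4 CPM in the lower-numbered set, while its partner chain Il20ra had 0 counts in every library.

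The 40 tested members differed between the library sets more widely than genes at large. In 21 of them (52.5%) every library of the lower-numbered set was above every library of the higher-numbered set, against 28% of the 13539 genes tested. In 8 (20%) the higher-numbered set was wholly above, against 26.9% of all genes, and in 11 the sets overlapped; sets that did not overlap in either direction made up 54.9% of all genes. The median size of the log2 difference between the set means was 1.09 for the members and 0.38 for all genes tested. Means differed by over 2-fold in 22 of 40 members (55%) and in 19.6% of all genes. By role, the lower-numbered set was wholly above in 6 of 11 tested ligands and in 12 of 25 tested receptor chains. The higher-numbered set was wholly above in 1 ligand and 6 receptor chains. The other 4 ligands and 7 receptor chains overlapped. The plot of all tested members shows these gaps gene by gene.

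**Figure D1:**
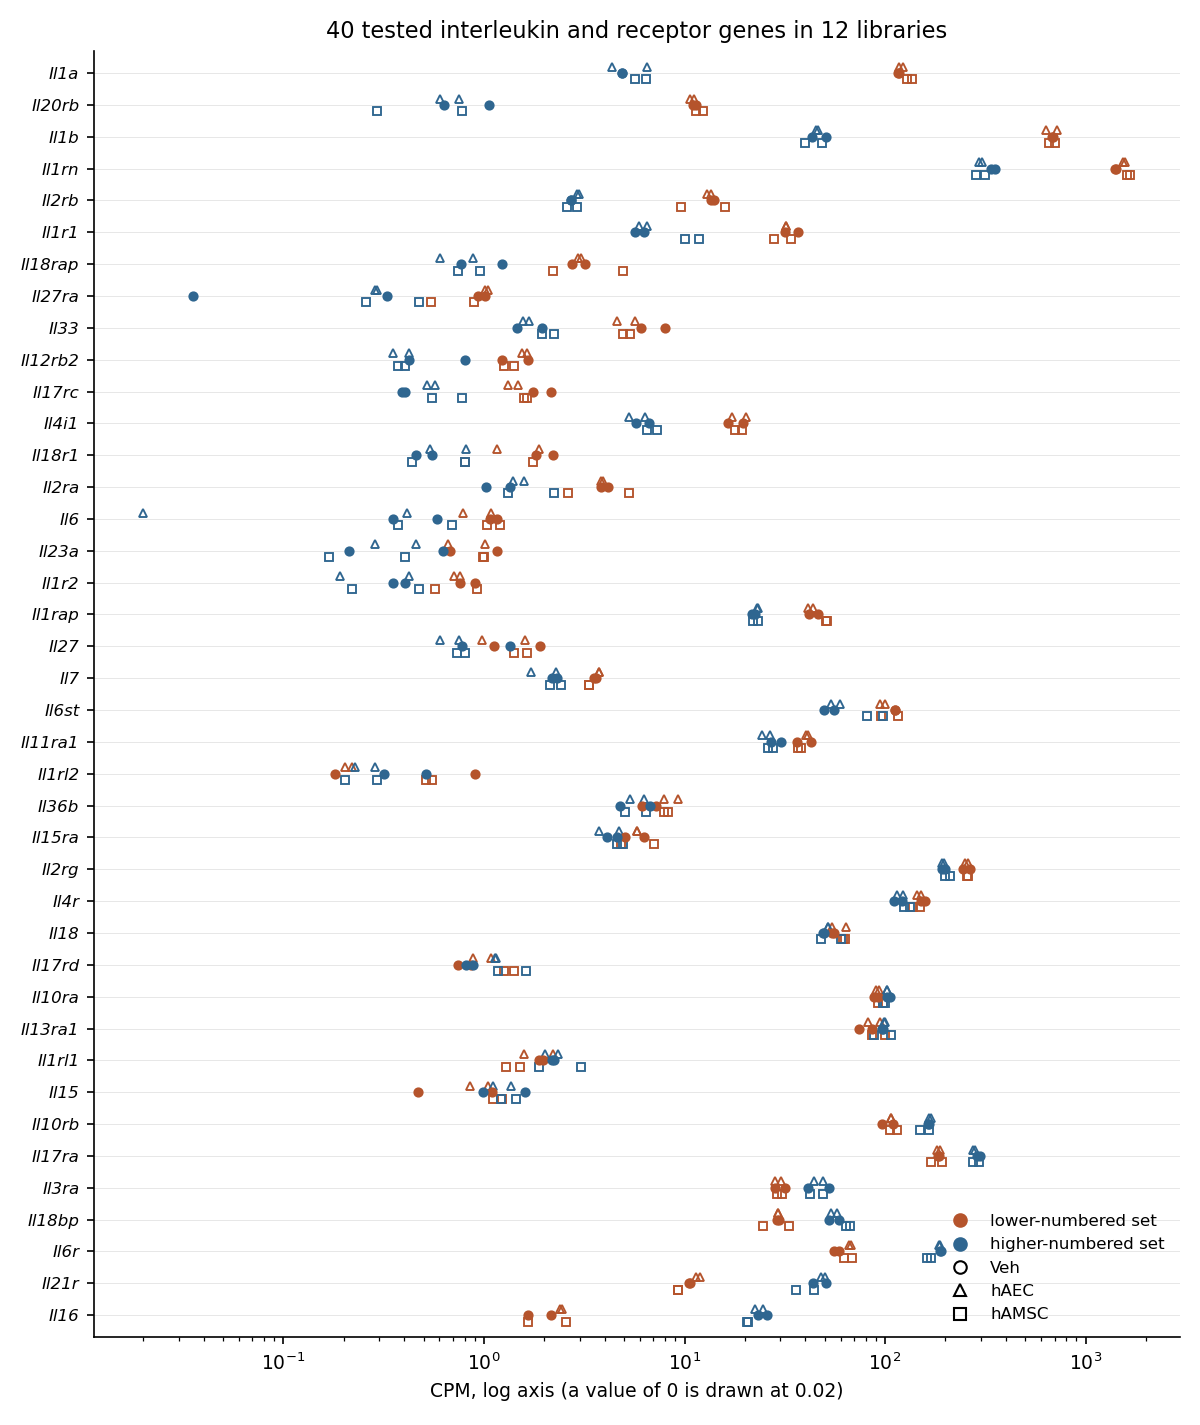
CPM of the 40 tested members (log axis) in each of the 12 libraries, with genes ordered by the difference between library sets, colour for the set and symbol for the group. Il1a, Il20rb and Il1b at the top and Il16 and Il21r at the bottom show wide gaps between the sets, while the 3 groups within a set lie close together for most genes.

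Among the ligands, the IL-1 cytokines and their antagonist were higher in the lower-numbered set. Il1a (ENSRNOG00000004575), which encodes IL-1 alpha, an alarm cytokine, lay between 116 and 136 CPM (median 120.4) there and between 4.37 and 6.49 CPM (median 5.30) in the higher-numbered set, a 22.5-fold difference of means. Il1b (ENSRNOG00000004649), which encodes the inflammasome-processed IL-1 beta, lay between 635 and 723 CPM (median 685) and between 40.0 and 50.5 CPM (median 45.9), a 14.9-fold difference. Il1rn (ENSRNOG00000005871), the IL-1 receptor antagonist, lay between 1396 and 1673 CPM (median 1548) and between 283 and 352 CPM (median 310.1), a 4.87-fold difference. The sets did not overlap in any of the 3 genes. Il1b had 40.6 to 49.5 counts for every 100 counts of Il1rn in libraries of the lower-numbered set and 12.3 to 15.7 in those of the higher-numbered set. These are counts not corrected for transcript length, so only the change in the ratio is of use. Il33, a nuclear alarmin of the same family, lay between 4.60 and 7.98 CPM (median 5.51) and between 1.46 and 2.22 CPM (median 1.81). Il18, which the inflammasome also processes, differed little, at 54.2 to 64.2 CPM (median 58.8) and 48.1 to 60.1 CPM (median 50.8), and the sets overlapped. Its soluble inhibitor Il18bp went the other way, at 24.6 to 33.0 CPM (median 29.2) and 52.5 to 67.0 CPM (median 58.0).

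**Figure D2:**
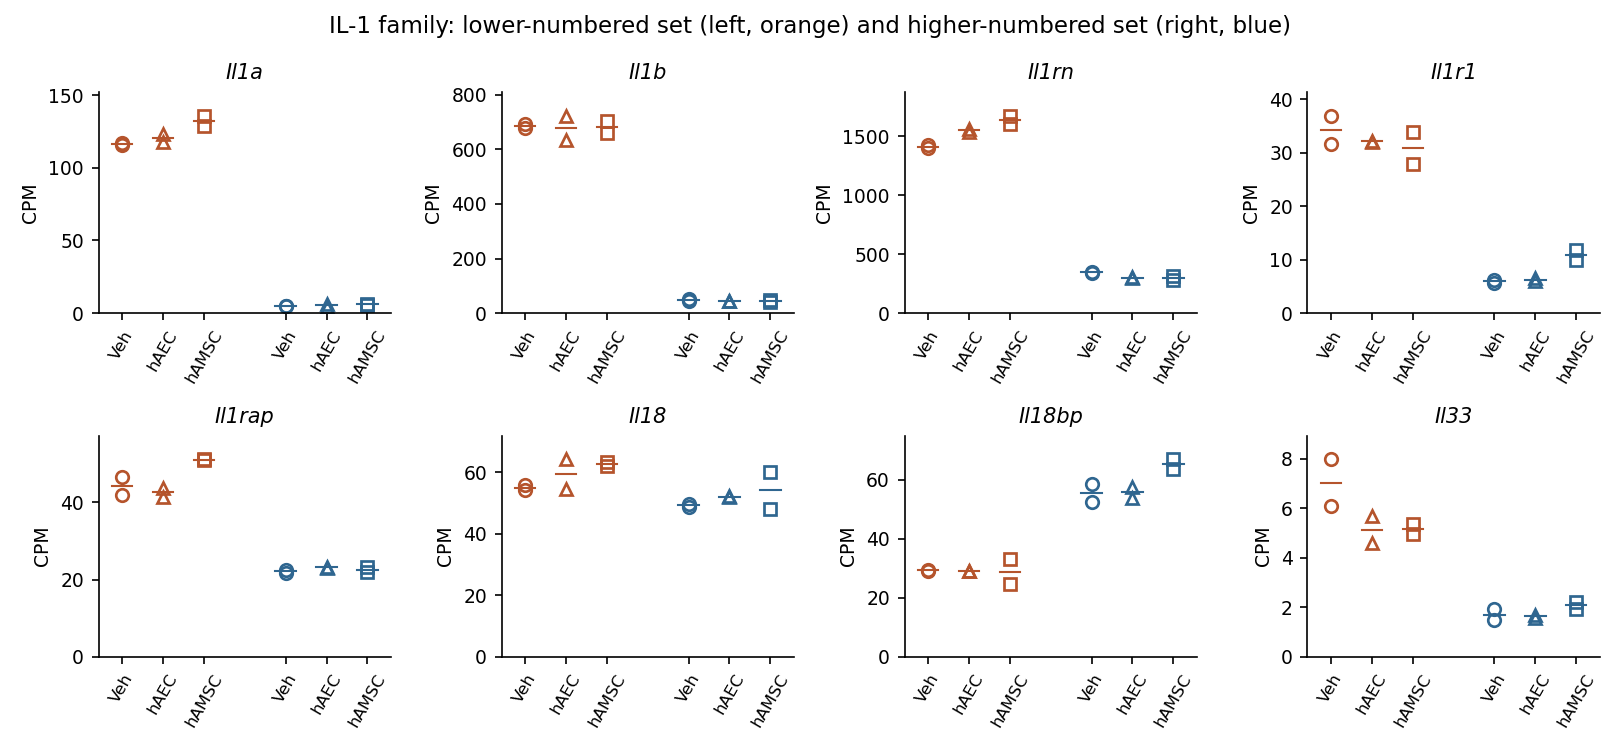
CPM of 8 IL-1 family genes by group and library set, each point a library and each bar the mean of 2 libraries, with the vertical axis from 0. Il1a, Il1b and Il1rn stand far higher in the lower-numbered set at left, Il18 stands about level, and Il18bp stands higher at right.

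Outside the IL-1 family, Il16, a chemoattractant for CD4-bearing cells, was the only tested ligand wholly above in the higher-numbered set. It lay between 1.65 and 2.55 CPM (median 2.28) in the lower-numbered set and between 20.5 and 25.9 CPM (median 22.8) in the higher-numbered set, a 10.7-fold difference. Il6 was low, with 25 to 39 counts per library (0.788 to 1.20 CPM, median 1.07) in the lower-numbered set. It had 0 to 19 counts in the higher-numbered set (up to 0.697 CPM, median 0.392), and the library at 0 was hAEC 11. Il7, Il23a, Il6 and Il33, with Il1a and Il1b, made up the 6 ligands whose lower-numbered set was wholly above. Il15, Il18, Il27 and Il36b overlapped. Il4i1, the amino acid oxidase, lay between 16.5 and 20.3 CPM (median 18.6) in the lower-numbered set and between 5.28 and 7.31 CPM (median 6.43) in the higher-numbered set. The gene span of Il4i1 overlaps those of Nup62 and Atf5 in RefSeq, so reads could be shared.

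Of the receptor chains, Il1r1 (ENSRNOG00000014504), the signalling receptor for both IL-1 forms, lay between 27.8 and 36.9 CPM (median 32.1) in the lower-numbered set and between 5.65 and 11.8 CPM (median 6.37) in the higher-numbered set. Its partner chain Il1rap lay between 41.3 and 51.2 CPM (median 45.2) and between 21.8 and 23.3 CPM (median 22.7). The decoy Il1r2 was low, at 0.573 to 0.923 CPM (median 0.757) and 0.191 to 0.472 CPM (median 0.377). Both receptor chains and the decoy were thus higher in the lower-numbered set, as were the 2 IL-1 ligands. The sum of the 9 endothelial markers moved in the same direction. It was 491 to 600.1 CPM in the lower-numbered set and 265 to 333 CPM in the higher-numbered set. Among these markers, Lyve1 was at 83.3 to 117 CPM and 2.54 to 10.8 CPM. Tie1, at 153 to 177 and 175 to 198 CPM, and Vwf, at 4.59 to 7.05 and 7.04 to 13.6 CPM, tended the other way. The part of the endothelial markers in the Il1r1 difference was not tested. Il20rb lay between 10.6 and 12.4 CPM (median 11.3) and between 0.293 and 1.06 CPM (median 0.693), a 16.5-fold difference. Il2rb, the beta chain for IL-2 and IL-15, lay between 9.66 and 15.9 CPM (median 13.6) and between 2.60 and 2.99 CPM (median 2.81). Il2ra, Il18rap and Il12rb2, which lymphocytes are known to express, were also wholly above in the lower-numbered set. Other chains did not follow. Il21r and Il10ra were wholly above in the higher-numbered set, and Il18r1, the partner of Il18rap, and Il15ra overlapped. The 3 NK cell markers moved with Il2rb, Il2ra, Il18rap and Il12rb2. They summed to 9.90 to 16.2 CPM in the lower-numbered set and 2.16 to 2.99 CPM in the higher-numbered set. None was at 0 in every library. The 4 T cell markers summed to 5.40 to 7.48 and 1.73 to 4.07 CPM, mostly from Cd2 in the lower-numbered set. Of the 4, only Cd2 was wholly above in that set, at 4.98 to 7.31 and 0.944 to 2.53 CPM. Cd3d, Cd3e and Cd3g overlapped and stayed at or below 0.880 CPM in every library. The part of NK and T cells in the receptor differences was not tested.

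The receptor chains that stood higher in the higher-numbered set included the IL-6 and IL-21 receptors. Il21r, the receptor for IL-21, lay between 9.23 and 11.9 CPM (median 10.6) in the lower-numbered set and between 36.0 and 51.0 CPM (median 46.3) in the higher-numbered set, a 4.34-fold difference. Il6r, the ligand-binding chain for IL-6, lay between 55.5 and 68.5 CPM (median 64.0) and between 161 and 190.1 CPM (median 187). Il3ra, Il10ra, Il10rb and Il17ra completed the 6 chains, with the higher-numbered set 1.10-fold to 1.56-fold above. Il6st, the gp130 chain that pairs with Il6r, did not follow it. Its levels were 94.4 to 116 CPM (median 106) in the lower-numbered set and 49.9 to 97.2 CPM (median 57.4) in the higher-numbered set, and the sets overlapped. By the set medians the IL-6 pair differed in opposite directions, although the Il6st ranges overlapped. The macrophage marker sum moved with Il6r and Il21r, as given above. Lyz2 differed most in CPM, at 984 to 1195 and 8401 to 9941 CPM. Adgre1, Csf1r, Mrc1, C1qa, C1qb, C1qc and Aif1 were also wholly above in the higher-numbered set. Cd14 (932 to 1080 and 167 to 217 CPM) and Marco (98.8 to 115 and 34.0 to 48.1 CPM) went the other way. Cd68, Cd163 and Clec4f overlapped. The part of the macrophage markers in the Il6r and Il21r levels was not tested.

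The promoter windows of 5 members with wide set differences are shown so that the IL-1 genes, which moved together, can be set beside Il16 and Il21r, which moved the other way. Each is the 250 bases before the RefSeq start in build GRCr8, 5′ to 3′ on the gene's strand. RefSeq's table gave 1 start per gene, and 63 of the 80 members had an entry. The windows lie at chr3:136990018-136990267 on the minus strand for Il1a, chr3:137036582-137036831 on the minus strand for Il1b, chr3:27520072-27520321 on the plus strand for Il1rn, chr1:147116743-147116992 on the minus strand for Il16 and chr1:189598503-189598752 on the plus strand for Il21r. Capitals mark an AP-1 motif.
Il1a: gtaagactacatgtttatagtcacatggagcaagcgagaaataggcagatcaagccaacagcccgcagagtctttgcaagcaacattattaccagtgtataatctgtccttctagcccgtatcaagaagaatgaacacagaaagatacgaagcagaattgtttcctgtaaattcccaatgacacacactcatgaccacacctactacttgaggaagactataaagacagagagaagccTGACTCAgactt
Il1b: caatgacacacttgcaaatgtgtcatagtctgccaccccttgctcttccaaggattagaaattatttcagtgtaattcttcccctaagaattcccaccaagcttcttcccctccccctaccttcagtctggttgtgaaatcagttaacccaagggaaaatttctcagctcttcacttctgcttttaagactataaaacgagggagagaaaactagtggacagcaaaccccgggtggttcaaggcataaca
Il1rn: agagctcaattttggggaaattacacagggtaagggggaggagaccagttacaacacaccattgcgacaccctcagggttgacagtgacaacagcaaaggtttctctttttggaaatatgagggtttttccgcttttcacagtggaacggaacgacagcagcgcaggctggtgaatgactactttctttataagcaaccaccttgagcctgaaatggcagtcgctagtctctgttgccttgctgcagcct
Il16: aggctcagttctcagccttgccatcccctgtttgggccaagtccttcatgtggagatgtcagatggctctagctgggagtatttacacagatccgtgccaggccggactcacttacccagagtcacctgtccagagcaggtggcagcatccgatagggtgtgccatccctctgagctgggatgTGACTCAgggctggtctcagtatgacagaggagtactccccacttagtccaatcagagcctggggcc
Il21r: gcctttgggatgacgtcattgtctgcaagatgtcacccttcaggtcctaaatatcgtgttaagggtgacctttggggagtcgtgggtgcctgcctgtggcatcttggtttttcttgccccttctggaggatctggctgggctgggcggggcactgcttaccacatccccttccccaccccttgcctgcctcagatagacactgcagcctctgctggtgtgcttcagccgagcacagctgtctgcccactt
Windows were searched on both strands for NF-kB (the 10-letter consensus), C/EBP (TTGCNNAA), AP-1 (TGANTCA), STAT (TTCNNNGAA) and PU.1 (GAGGAAGT) letters. Of these 5 windows, those of Il1a and Il16 held 1 AP-1 match each, at 12 to 6 and at 67 to 61 bases before the start. The windows of Il1b, Il1rn and Il21r held none of the 5 motifs. The window of Il20rb, which also had a wide set difference and is not shown, held a C/EBP match at 123 to 116 bases before the start. Over the 34 tested members with an entry, AP-1 letters were in 4 windows, C/EBP in 3, STAT in 2, and NF-kB and PU.1 in 1 each. Among all 27457 promoters of the same length, 6.39% held AP-1, 9.23% C/EBP, 7.56% STAT, 0.31% NF-kB and 2.03% PU.1 letters. A match describes letters only, and the AP-1 match was shared by a gene from each direction of the set difference.

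Co-culture with hAEC was compared with Veh to ask what soluble products of these cells do to the cultured rat cells. No member passed the test. By edgeR's quasi-likelihood method and Benjamini-Hochberg adjustment, 0 of 40 members passed a threshold of 0.05, where 0 of 13539 genes (0%) passed. At an unadjusted p under 0.05 there was 1 member, against 5.61% of all genes, and limma voom and DESeq2 each called 0 members. The median log2 fold change was -0.02 over the members and -0.003 over all genes tested, and 14 of 40 members had a value above 0. The member with the smallest p was Il1rl2, the receptor for IL-36 cytokines, at 0.202, 0.221, 0.228 and 0.286 CPM beside hAEC. The Veh libraries had 0.181, 0.906, 0.318 and 0.512 CPM, so the groups overlapped. Its log2 fold change was -1.002 (SE 0.47, adjusted p = 0.881) and came to -0.54 without Veh 18, the library at 0.906 CPM. Il33 had a log2 fold change of -0.30 (SE 0.17, adjusted p = 0.920). In the lower-numbered set it was at 5.66 and 4.60 CPM beside hAEC and at 7.98 and 6.08 CPM in Veh, and in the higher-numbered set at 1.57 and 1.69 against 1.94 and 1.46 CPM. Il17rd, a receptor-like regulator of FGF and IL-17 signalling, had 0.36 (SE 0.22, adjusted p = 0.920).

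hAMSC against Veh asked the same of the mesenchymal cells, and again no member passed. edgeR's quasi-likelihood method with Benjamini-Hochberg adjustment called 0 of 40 members, where 32 of 13539 genes (0.236%) passed. At an unadjusted p under 0.05 there were 4 members, 3 above and 1 below Veh, against 9.68% of all genes. limma voom and DESeq2 called 0 members, although DESeq2 gave no adjusted p for 16 of them. The median log2 fold change was 0.01 over the members and -0.003 over all genes tested, with 22 of 40 members above 0. Il17rd had the smallest p, with 1.40, 1.26, 1.62 and 1.17 CPM beside hAMSC and 0.866, 0.744, 0.812 and 0.877 CPM in Veh. These groups did not overlap, and the log2 fold change was 0.73 (SE 0.22, adjusted p = 0.236). Its counts were 23 to 49 per library over these 8 libraries, and its gene span overlaps that of Arhgef3 in RefSeq, so reads could be shared. Il21r was at 9.28 and 9.23 CPM beside hAMSC against 10.5 and 10.7 CPM in Veh in the lower-numbered set. The higher-numbered set had 44.4 and 36.0 against 43.6 and 51.0 CPM, and the log2 fold change was -0.22 (SE 0.07, adjusted p = 0.286). Il1a was at 136 and 128 against 117 and 116 CPM in the lower-numbered set, and at 5.70 and 6.42 against 4.91 and 4.90 CPM in the higher-numbered set. All 4 hAMSC libraries were thus above the Veh libraries of their set, with a log2 fold change of 0.22 (SE 0.08, adjusted p = 0.342). Il18 had 0.16 (SE 0.06, adjusted p = 0.409).

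Between the co-cultures, edgeR's quasi-likelihood method with Benjamini-Hochberg adjustment called 0 of 40 members for hAEC against hAMSC, where 3 of 13539 genes (0.0222%) passed. At an unadjusted p under 0.05 there were 2 members, against 6.37% of all genes. limma voom called 0 members and DESeq2 called 1, Il21r (DESeq2 adjusted p = 0.0361). The median log2 fold change was -0.04 over the members and -5.45e-05 over all genes tested, with 13 of 40 above 0. Il21r was at 11.4 and 11.9 CPM beside hAEC in the lower-numbered set and at 49.99 and 48.2 CPM in the higher-numbered set. Within each set both values were above those beside hAMSC, with an edgeR log2 fold change of 0.31 (SE 0.07, adjusted p = 0.145). Il6st had -0.40 (SE 0.17, adjusted p = 0.749) and Il1rap -0.12 (SE 0.06, adjusted p = 0.830). Il1rap was at 43.9 and 41.3 CPM beside hAEC against 51.2 and 50.9 CPM beside hAMSC in the lower-numbered set, but at 23.0 and 23.3 against 23.2 and 22.0 CPM in the higher-numbered set.

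Apart from Il6, the main cytokine and antagonist genes had small differences in the fit of all 12 libraries. Il1b had log2 fold changes of -0.02 (SE 0.06) beside hAEC and -0.04 (SE 0.06) beside hAMSC, with adjusted p of 0.987 and 0.863 by edgeR's quasi-likelihood test. Il1rn had -0.03 (SE 0.07) and 0.01 (SE 0.07), with adjusted p of 0.974 and 0.988 by the same test. These Il1rn values average over sets that moved in opposite directions. Its ratio to the Veh mean was 1.10 beside hAEC and 1.16 beside hAMSC in the lower-numbered set. In the higher-numbered set the ratios were 0.871 and 0.868. Il4r had -0.02 and 0.02 (SE 0.05) and Il10ra -0.0028 and 0.0015 (SE 0.04). Il18bp had 0.00 (SE 0.08) beside hAEC and 0.11 (SE 0.08) beside hAMSC. Il6 had -0.58 (SE 0.49) and 0.09 (SE 0.48), where the low counts left a wide error. The fold change plot shows that wide errors belong mostly to genes of few counts.

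**Figure D3:**
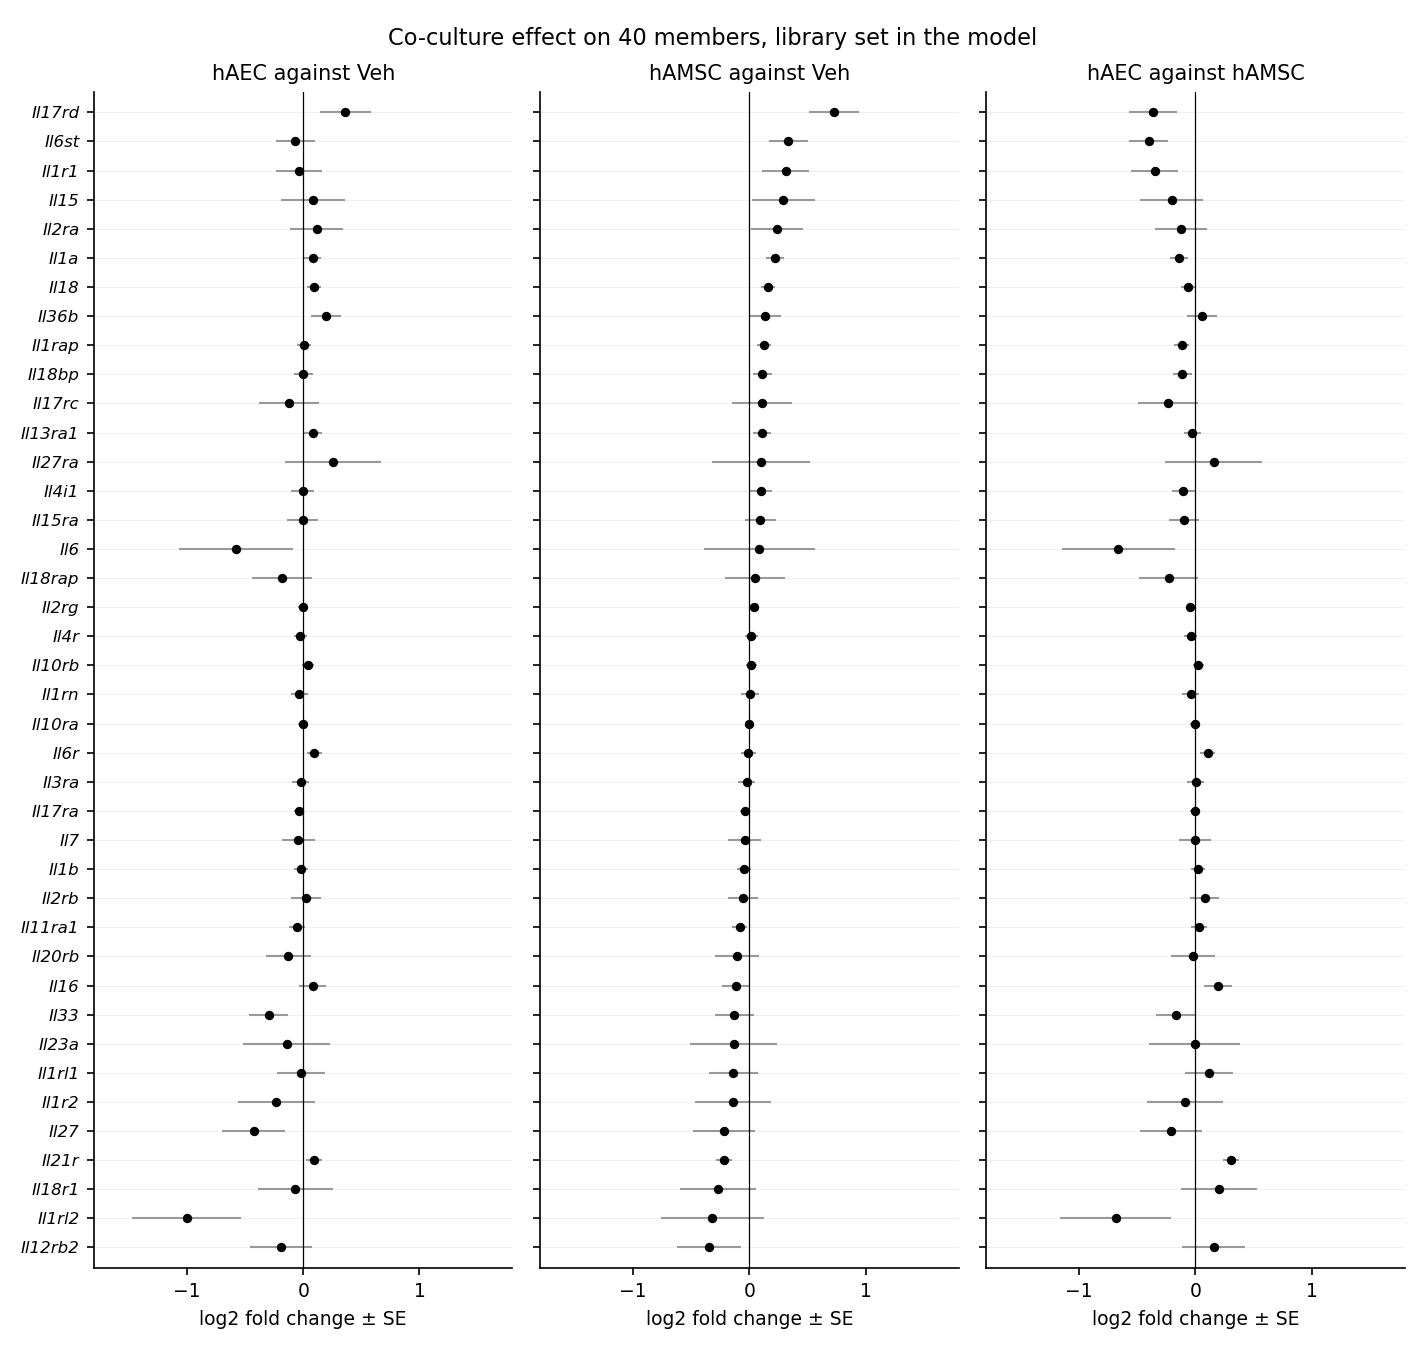
Log2 fold change with its standard error for the 40 tested members in the 3 comparisons, from the edgeR fit with the library set as a term, ordered by hAMSC against Veh. Most points lie near 0, and Il17rd, Il6st and Il1r1 head the order for hAMSC without passing the adjusted threshold.

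A co-culture effect could differ between the library sets, and the interaction of set and group tested this for each member. For hAMSC against Veh, 2 of 40 members passed edgeR's quasi-likelihood method with Benjamini-Hochberg adjustment, where 27 of 13539 genes (0.199%) passed. At an unadjusted p under 0.05 there were 7 members, against 10% of all genes. For hAEC against Veh, the same edgeR test called 0 members and 0% of all genes, with 2 members at an unadjusted p under 0.05 against 5.4% of all genes; limma voom called 0 members as well. The members that passed for hAMSC were Il1r1 and Il1rn, the receptor and the antagonist of IL-1.

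Il1r1 was raised beside hAMSC in the higher-numbered set and not in the other. In the higher-numbered set it was at 11.8 and 10.01 CPM beside hAMSC, 5.65 and 6.25 CPM in Veh and 5.93 and 6.49 CPM beside hAEC. Both hAMSC libraries were above the other 4, and the mean was 1.83 times that of Veh. In the lower-numbered set it was at 27.8 and 33.8 CPM beside hAMSC, 31.6 and 36.9 CPM in Veh and 32.1 CPM in both hAEC libraries, and the ratio to Veh was 0.899. The difference of log2 fold changes, higher-numbered minus lower-numbered set, was 1.03 (SE 0.17, adjusted p = 0.0192 by edgeR's quasi-likelihood test). The call was lost with limma voom (adjusted p = 0.0856), and without hAMSC 7 (0.0737), hAMSC 15 (0.110), Veh 18 (0.0960), Veh 19 (0.104) or Veh 20 (0.0804), while the difference stayed between 0.89 and 1.17. Leaving out a library leaves 1 library in its group and set, which is then assumed to vary like the others.

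Il1rn moved in opposite directions in the 2 sets. In the lower-numbered set it was at 1673 and 1604 CPM beside hAMSC, 1563 and 1532 CPM beside hAEC and 1422 and 1396 CPM in Veh, so Veh was lowest. In the higher-numbered set it was at 315 and 283 CPM beside hAMSC, 295 and 305 CPM beside hAEC and 352 and 338 CPM in Veh, so Veh was highest. The ratio of hAMSC to Veh means was 1.16 in the lower-numbered set and 0.868 in the higher-numbered set. The difference of log2 fold changes for hAMSC was -0.42 (SE 0.08, adjusted p = 0.0390 by edgeR's quasi-likelihood test), and limma voom gave an adjusted p of 0.0451. The same difference for hAEC was -0.34 (SE 0.08, adjusted p = 0.418 by edgeR). The hAMSC call was lost without hAEC 3 (0.0931), hAEC 4 (0.0950), hAEC 11 (0.0536), hAEC 12 (0.0523), hAMSC 7 (0.180), Veh 17 (0.0802), Veh 18 (0.147), Veh 19 (0.138) or Veh 20 (0.0977), while the difference stayed between -0.50 and -0.35. The gene span of Il36b overlaps that of Il1rn in RefSeq, so reads of the pair may be shared.

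Both chains of the IL-6 receptor came next. Il6st was at 97.2 and 81.6 CPM beside hAMSC in the higher-numbered set, against 55.5 and 49.9 CPM in Veh and 59.3 and 54.0 CPM beside hAEC. The hAMSC libraries were above the other 4, at 1.70 times the Veh mean. In the lower-numbered set the values were 95.3 and 116 CPM beside hAMSC and 112 and 113 CPM in Veh, a ratio of 0.944. The difference of log2 fold changes was 0.85 (SE 0.15, adjusted p = 0.0567 by edgeR's quasi-likelihood test). Il6r was at 161 and 169.7 CPM beside hAMSC in the higher-numbered set against 189 and 190.1 CPM in Veh, and at 68.5 and 62.1 against 58.7 and 55.5 CPM in the lower-numbered set. Its difference was -0.39 (SE 0.08, adjusted p = 0.0706 by edgeR). Neither passed with all 12 libraries. Whether they passed with a library left out turned on which library it was, and such a fit leaves 1 library in its group and set. In a fit of the higher-numbered set alone, Il1r1 rose beside hAMSC by 0.87 and Il6st by 0.76 on the log2 scale (edgeR adjusted p of 0.0184 and 0.00475). In the same fit both were lower beside hAEC than beside hAMSC, by -0.81 for Il1r1 and -0.66 for Il6st (edgeR adjusted p of 0.0370 and 0.0133). This fit uses the libraries whose values are given above, so it restates them and adds no separate support. The counts called over all genes in it are given with the dependence on processing.

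**Figure D4:**
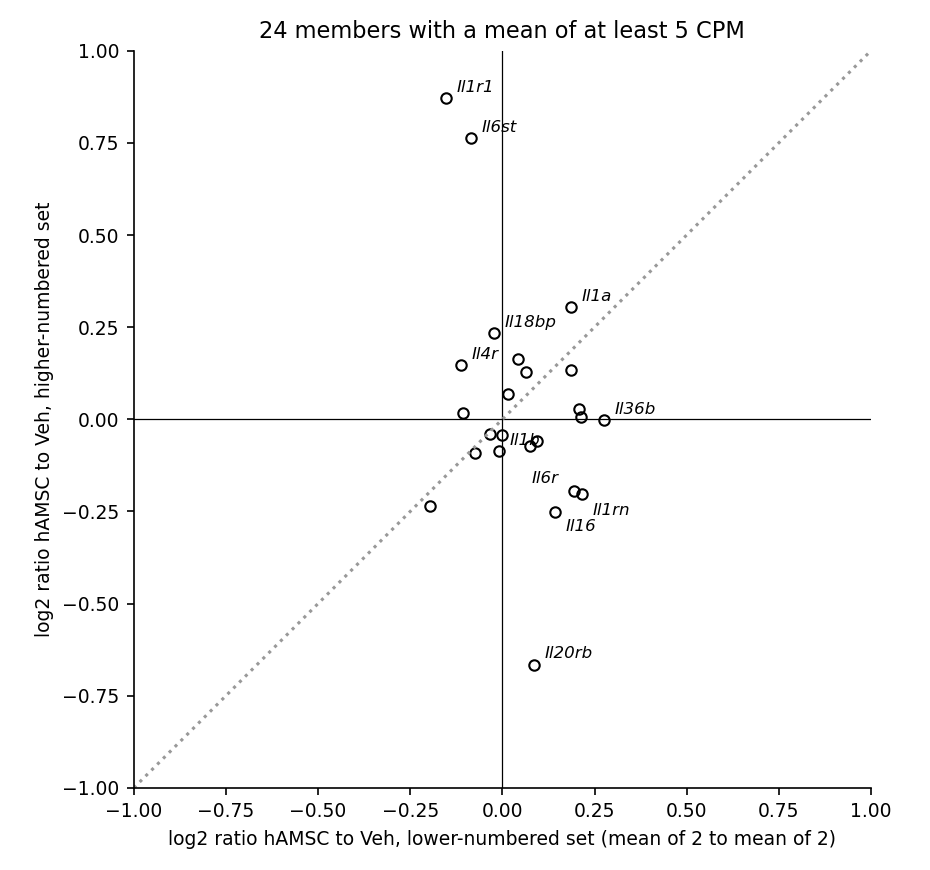
Log2 ratio of the hAMSC mean to the Veh mean in the lower-numbered set (horizontal) and in the higher-numbered set (vertical) for the 24 members with a mean of at least 5 CPM, each ratio from 2 against 2 libraries and the dotted line marking equal ratios. Il1r1 and Il6st stand apart at the top, with ratios of 1.83 and 1.70 in the higher-numbered set, Il1rn and Il6r lie to the lower right, and Il20rb, at the bottom, had 8 to 29 counts per library there.

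Endothelial markers moved with Il1r1 and Il6st. In the higher-numbered set all 9 endothelial markers were higher in both hAMSC libraries than in the other 4, and they summed to 309 to 333 CPM against 265 to 274 CPM. Lyve1, a sinusoidal endothelial receptor, was at 10.8 and 7.99 CPM in hAMSC 15 and 16 and at 2.54 to 3.16 CPM in the other 4. The macrophage sum was 19820 to 20142 CPM in hAMSC 15 and 16 and 20675 to 21585 CPM in the other 4. Of the 13 macrophage markers, 4 were below the other 4 libraries in both hAMSC libraries, and 1, Cd163, was above them in both. The same pair of libraries also lay nearer to the lower-numbered set on the first principal component computed without the members, at 34.1 and 37.4 against 40.1 to 41.0. Of the 4 dendritic cell markers, 2 were above in the same way, and the 4 summed to 36.7 to 39.0 CPM against 20.7 to 34.4 CPM. No endothelial marker was at 0 in every library. Their part in the Il1r1 and Il6st values was not tested.

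Beyond the members, 58 of 59 listed genes of interleukin signalling were in the files and 56 were tested. edgeR's quasi-likelihood method with Benjamini-Hochberg adjustment called 0 of 56 in each of the 3 comparisons, where 0%, 0.236% and 0.0222% of all genes passed for hAEC against Veh, hAMSC against Veh and hAEC against hAMSC. At an unadjusted p under 0.05 there were 2, 9 and 10 of the 56, against 5.61%, 9.68% and 6.37% of all genes. limma voom called 0 of the 56 in each, against 1, 45 and 10 of all 13539 genes, and DESeq2 called 0, 2 and 2, against 2, 155 and 80 of all genes. In the interaction for hAMSC, 2 of 56 passed edgeR's test, against 0.199% of all genes, and both belong to the gp130 system. Socs3, the feedback inhibitor of gp130 signalling, was at 6.23 and 5.79 CPM beside hAMSC in the higher-numbered set. The other 4 libraries of that set had 2.26 to 2.85 CPM, and the lower-numbered set had 23.2 to 31.0 CPM. The difference of log2 fold changes was 1.20 (SE 0.19, adjusted p = 0.0192 by edgeR). Lifr, the LIF receptor chain that pairs with Il6st, was at 5.09 and 3.30 CPM beside hAMSC in the higher-numbered set. Veh had 0.988 and 0.840 CPM and hAEC 1.83 and 1.15 CPM there, and the lower-numbered set had 3.69 to 5.60 CPM. Its difference was 2.01 (SE 0.38, adjusted p = 0.0454 by edgeR). The 2 hAMSC libraries were thus above the other 4 of their set in both genes.

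Neither gp130 call was stable to leaving out a library. The Socs3 call was lost with limma voom (adjusted p = 0.115) and without hAMSC 7 (0.0943), hAMSC 15 (0.101), Veh 18 (0.0937), Veh 19 (0.109) or Veh 20 (0.0539). The Lifr call was lost with limma voom (0.0964) and without hAEC 3 (0.0931), hAEC 4 (0.0950), hAMSC 7 (0.180), hAMSC 15 (0.207), Veh 17 (0.0813), Veh 18 (0.158), Veh 19 (0.120) or Veh 20 (0.231). The differences stayed between 1.06 and 1.35 for Socs3 and between 1.66 and 2.29 for Lifr. The endothelial markers given above moved with both genes, and their part was not tested. Osmr, the oncostatin M receptor chain, had the same layout, at 5.32 and 5.43 CPM beside hAMSC in the higher-numbered set and 2.45 to 3.32 CPM in the other 4, and did not pass (difference 0.73, adjusted p = 0.331 by edgeR).

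**Figure D5:**
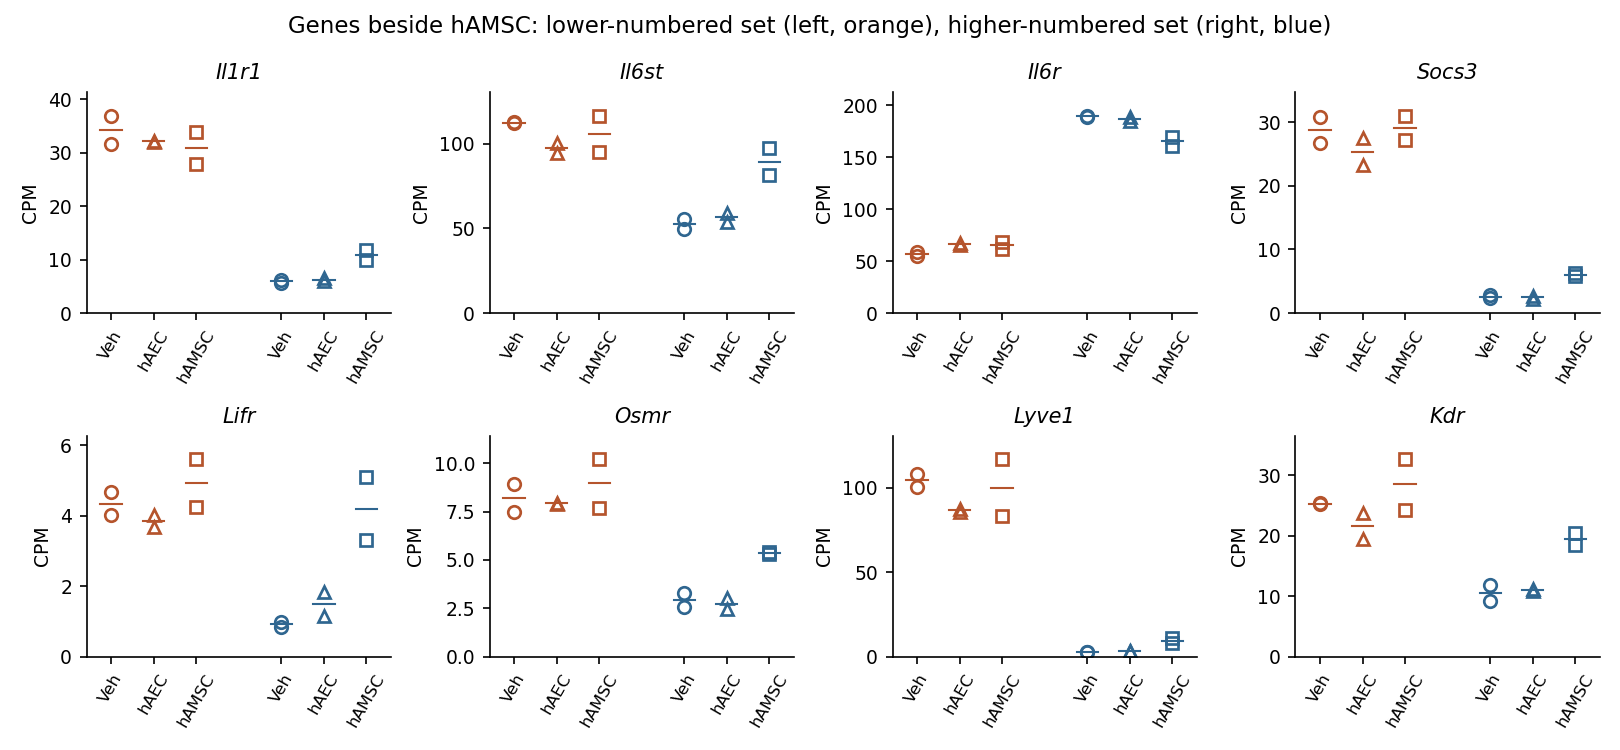
CPM of Il1r1, Il6st, Il6r, the gp130 pathway genes Socs3, Lifr and Osmr, and the endothelial markers Lyve1 and Kdr, by group and library set, each point a library and each bar the mean of 2. In the higher-numbered set (blue) the 2 hAMSC libraries lie above the other 4 for every gene shown but Il6r, where they lie below them.

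The pathway genes with the smallest p in each comparison did not pass edgeR's quasi-likelihood test. For hAEC against Veh they were Gsdmd, the pore protein that releases IL-1 beta (log2 fold change -0.10, SE 0.04, adjusted p = 0.881 by edgeR), Socs2 (0.21) and Tollip (0.08). For hAMSC against Veh they were Nlrp3, Gsdmd (-0.14) and Osmr (0.48). Nlrp3, the inflammasome sensor, was at 146 and 129.8 CPM beside hAMSC against 112 and 116 CPM in Veh in the lower-numbered set. The higher-numbered set had 57.2 and 49.7 against 48.1 and 48.5 CPM, so all 4 hAMSC libraries were above the Veh libraries of their set. Its log2 fold change was 0.21 (SE 0.05, adjusted p = 0.125 by edgeR), and DESeq2 gave an adjusted p of 0.0165. For hAEC against hAMSC they were Jak3 (-0.26, SE 0.06, adjusted p = 0.156 by edgeR and 0.0280 by DESeq2), Nlrp3 (-0.20) and Osmr (-0.55). Jak3 encodes the kinase that pairs with the common gamma chain Il2rg.

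Across the library sets, 20 of the 56 pathway genes (35.7%) were wholly above in the lower-numbered set, against 28% of all genes tested. In 18 (32.1%) the higher-numbered set was wholly above, against 26.9% of all genes, and 18 overlapped. Cish, a cytokine-induced inhibitor of STAT5 signalling, lay between 26.6 and 37.5 CPM in the lower-numbered set and between 1.34 and 2.29 CPM in the higher-numbered set. Socs3 had the same direction. Csf2rb, the beta chain that Il3ra pairs with, lay between 811 and 933 CPM and between 196 and 318 CPM, opposite in direction to Il3ra. Nlrp3 lay between 112 and 146 CPM and between 46.5 and 57.2 CPM, the direction of Il1a and Il1b. Of the genes higher in the higher-numbered set, Irs1, an insulin receptor substrate, lay between 1.95 and 2.59 CPM in the lower-numbered and between 13.0 and 16.7 CPM in the higher-numbered set. Jak3 lay between 16.5 and 20.6 CPM and between 51.5 and 69.8 CPM, the direction of Il21r and opposite to Il2rg and Il2rb. Ebi3, a subunit of IL-27, lay between 34.1 and 39.2 CPM and between 104 and 129 CPM. Myd88, the adaptor of IL-1 receptors, lay between 74.3 and 79.5 CPM and between 137 and 147 CPM, opposite in direction to Il1r1 and Il1rap.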

How the data were processed

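Polyadenylated RNA was measured in 12 libraries, 4 per group. Each deposited file holds unnormalized expected counts by gene for 1 library. The tools named, per the submitters' processing notes, were STAR, RSEM, Trim Galore, FastQC and limma, and the builds named there were Rnor_6.0 and rn6. Their versions, the annotation release and the counting's strand setting were not given in the sources used here. Per the labels' protocols the library kit was stranded. RSEM shares reads that fit several genes, so paralogs and overlapping genes carry further uncertainty.

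Members were all rows whose symbol begins with Il and a digit; no member symbol was repeated. The members and the gene lists were chosen with earlier results of these data known. Expected counts were rounded and tested over all genes with edgeR 4.0.16 (R 4.3.3): filterByExpr, TMM scaling (factors 0.973 to 1.03), a robust quasi-likelihood fit of all 12 libraries with group and library set, two-sided, Benjamini-Hochberg adjustment over 13539 genes. With the set as a term the biological coefficient of variation was 9.91%, and without it 38.9%. The library sets were seen in the expression values, so they were not tested. A second fit held the interaction of set and group. All pairs of libraries differed by more than counting noise, with a chi-square per gene of at least 6.78, so none was taken for a copy of another. The scripts were tested on simulated data.

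Named in full were members that passed a test, the 3 with the smallest p per comparison, the 10 with the largest set difference among those with a mean of at least 5 CPM in either set, and a fixed list (Il1a, Il1b, Il1rn, Il6, Il10, Il10ra, Il4r, Il6st, Il18, Il18bp, Il1r2). Il6r, Il17ra, Il2rg and other members named with values outside this rule were chosen after their values were seen. Of the pathway list, genes that passed or the 3 with the smallest p were named; Cish, Csf2rb, Irs1, Ebi3 and Myd88 were chosen after their values were seen. Alternatives were no set term, limma voom (limma 3.58.1), DESeq2 1.42.0, RLE or library size scaling, no filter or a mean of at least 5 CPM, the 2 groups alone, each set alone and each library left out. Leaving out libraries in the interaction was added after seeing the data. Marker lists covered macrophages, stellate cells and myofibroblasts, endothelium, hepatocytes, T, B and NK cells, neutrophils, mast cells and basophils, and dendritic cells. The hepatocyte markers summed to 521 to 652 CPM in the lower-numbered and 672 to 819 CPM in the higher-numbered set, nearly all from Tf. Dendritic cell markers summed to 15.5 to 23.3 and 20.7 to 39.0 CPM, neutrophil markers to 2.14 to 3.84 and 1.17 to 2.40 CPM, mast cell and basophil markers to 0.201 to 0.769 and 0 to 0.0636 CPM, and B cell markers to at most 0.221 CPM. Promoter windows came from RefSeq (GRCr8), matched by symbol. No coordinates of the files' build were used.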

Additional observations from a re-analysis of the deposited data

Results flagged for a closer look

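Il15ra, the IL-15 receptor alpha chain, stood at 7.01 CPM in hAMSC 8, apart from 4.81, 4.92 and 4.62 CPM in the other hAMSC libraries. Among 120 combinations of a member and a group, each with 4 libraries, chance alone would flag about 1 in 20 if the 4 came from 1 population. Each group holds 2 libraries of each set, so that rate need not hold here. In 4 genes the effect of hAMSC against Veh differed between the library sets by edgeR's interaction test. The difference of log2 fold changes, higher-numbered minus lower-numbered set, was 1.03 for Il1r1, -0.42 for Il1rn, 1.20 for Socs3 and 2.01 for Lifr. Each of these 4 calls was lost when certain single libraries were left out, as given with the genes, and the sets are not named by the labels.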

How the results depend on the processing

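No member was called in any of the 3 comparisons under any setting tried except DESeq2 for hAEC against hAMSC (1) and the higher-numbered set alone (2 for hAMSC against Veh and 2 for hAEC against hAMSC). Over all genes, the count called for hAEC against Veh was 0, and became 1 with limma voom, 2 with DESeq2, 10 with the 2 groups alone, 1 in the lower-numbered and 6 in the higher-numbered set. For hAMSC against Veh it was 32, and became 0 without the set term, 155 with DESeq2, 52 with no filter, 9 with the 2 groups alone, 86 and 94 within the sets, and 8 to 153 with a library left out. For hAEC against hAMSC it was 3, and became 0, 10 with limma voom, 80 with DESeq2, 26 with no filter, 1 and 58 within the sets, and 0 to 50 with a library left out. Interaction calls among members were 2, and became 1 with limma voom, 5 with no filter and 0 to 4 with a library left out. Over all genes they were 0 for hAEC (309 with no filter, 0 to 5 leaving out a library) and 27 for hAMSC (10 with limma voom, 533 with no filter, 0 to 158 leaving out a library). The cause was not tested. Members whose sets do not overlap numbered 29 of 40, where the sets did not overlap in 54.9% of all genes tested. Among the 24 members with a mean of at least 5 CPM they numbered 19. The share of all genes at that mean is not given here.

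Log2 fold changes that changed sign were small or differed between the sets. Il1rn was 0.075 for hAEC against Veh without the set term, 0.14 in the lower-numbered set alone, and -0.091 to 0.023 with a library left out. For hAMSC against Veh it was -0.21 in the higher-numbered set and -0.053 to 0.066 with a library left out, and for hAEC against hAMSC 0.0039 and -0.099 to 0.0055. Il1b ran from -0.059 to 0.025, -0.078 to 0.0079 and -0.027 to 0.070 with a library left out in the 3 comparisons, and for hAEC against hAMSC was -0.00041 without the set term and -0.0060 in the lower-numbered set. In the lower-numbered set alone Il6st was -0.076 and Il1r1 -0.15 for hAMSC against Veh, and Il1r1 was 0.057 for hAEC against hAMSC. Il1rap was 0.037 for hAEC against hAMSC in the higher-numbered set. No paired analysis was possible because sample numbers are not shared between groups. No symbol was repeated, so summing repeats gave no value. At this depth 40 of 80 members were too low to test.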
